A study of Homo sapiens with 10 samples.

Results

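EZH1, EZH2, EED and SUZ12 encode the core of polycomb repressive complex 2 (PRC2), and the data here are the binding sites listed at these 4 genes, of 20037 protein-coding genes, in 6 ChIP-seq libraries of 22RV1 cells. 22RV1 is an established human prostate cancer line. For each gene, every summit (the highest point of a listed peak) in the gene or within 1 kb of its ends was taken. EZH2 was selected on its measured summit values, which differ within the siRNA pair and within the RBN pair. Its values in those 2 pairs are therefore given as a description and support nothing. The 6 groups, each with 1 library and no replicate, were RB1 siRNA and its control siRNA, HA-RB(245-255) and its control labelled EV(245-255), and HA-RBN and its control labelled EV(RBN). Plasmids were used to overexpress RB(245-255) or RBN, and the design text of the series gives the fragment as starting at residue 244. The labels list transfection and infection as the treatment of all 6 groups. One label field places the HA-RB(245-255) library among the controls while its title names the construct, and the title was followed. IgG libraries were labelled for the siRNA pair and the 245-255 pair and were not analysed here. The antibody is not named in the labels, and the title of the series concerns the chromatin reader TRIM24 and the S249 and T252 sites of RB. How far RB1 was depleted, how much RB fragment was expressed, the siRNA sequence and the plasmid promoter are not stated in the labels.

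PRC2 methylates lysine 27 of histone H3 and keeps developmental genes silent. EZH2 and EZH1 are its alternative catalytic subunits, SUZ12 is the scaffold that holds the complex together, and EED reads the methyl mark and stimulates the enzyme. EZH2 belongs to the genes that E2F factors switch on in dividing cells and that RB restrains, and it is known for high levels in advanced prostate cancer, whereas EZH1 predominates in cells that do not divide. The lists measure DNA bound by the immunoprecipitated protein at these genes, not their expression.

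The summits lay mainly at the start sites of the genes, so the 4 promoters are shown, each from 250 bases before to 50 bases after the start site (RefSeq, GRCh38.p14), read 5′ to 3′ on the strand of the gene. Capitals mark matches, on either strand, to the E2F words TTTCCCGC, TTTCGCGC, TTTGCCGC or TTTGGCGC, to CCAAT and to the NRF1 word GCGCATGC. EZH2 lies at chr7:148884242-148884541 on the minus strand, SUZ12 at chr17:31936757-31937056 on the plus strand, EZH1 at chr17:42744991-42745290 on the minus strand and EED at chr11:86244503-86244802 on the plus strand.
EZH2: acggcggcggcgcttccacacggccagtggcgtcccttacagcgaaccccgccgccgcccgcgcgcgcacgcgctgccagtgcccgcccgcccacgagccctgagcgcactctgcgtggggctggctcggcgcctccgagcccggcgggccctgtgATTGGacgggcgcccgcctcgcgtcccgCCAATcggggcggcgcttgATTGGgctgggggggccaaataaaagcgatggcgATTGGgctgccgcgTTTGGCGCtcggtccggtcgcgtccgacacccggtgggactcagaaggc
SUZ12: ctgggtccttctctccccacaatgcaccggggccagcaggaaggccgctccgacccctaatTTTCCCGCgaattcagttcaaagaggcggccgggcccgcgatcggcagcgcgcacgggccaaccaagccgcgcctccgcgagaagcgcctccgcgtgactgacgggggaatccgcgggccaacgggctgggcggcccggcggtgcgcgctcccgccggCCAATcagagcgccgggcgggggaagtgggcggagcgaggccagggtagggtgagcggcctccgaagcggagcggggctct
EZH1: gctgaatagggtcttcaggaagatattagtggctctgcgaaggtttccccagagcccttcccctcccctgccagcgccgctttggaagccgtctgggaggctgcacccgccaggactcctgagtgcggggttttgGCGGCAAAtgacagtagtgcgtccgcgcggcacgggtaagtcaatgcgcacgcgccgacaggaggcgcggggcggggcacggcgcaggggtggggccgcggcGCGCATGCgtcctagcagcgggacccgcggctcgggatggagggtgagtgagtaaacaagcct
EED: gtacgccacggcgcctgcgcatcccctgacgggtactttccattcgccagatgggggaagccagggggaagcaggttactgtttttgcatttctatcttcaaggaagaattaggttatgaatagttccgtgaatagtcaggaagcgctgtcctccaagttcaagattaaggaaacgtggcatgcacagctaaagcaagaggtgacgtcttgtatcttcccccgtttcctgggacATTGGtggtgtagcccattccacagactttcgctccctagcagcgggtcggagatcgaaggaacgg

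The EZH2 promoter held 1 E2F word, at bases 252 to 259 of the printed run, and 4 CCAAT words, at bases 157 to 161, 185 to 189, 204 to 208 and 238 to 242. Of 35116 RefSeq promoter windows of the same length, 3.31% held an E2F word, 34.6% a CCAAT and 0.991% at least 4 of them. SUZ12 held 1 E2F word at bases 62 to 69 and 1 CCAAT at bases 220 to 224, and 1.22% of all windows held both words as EZH2 and SUZ12 did. EZH1 held 1 E2F word, on the reverse strand at bases 136 to 143, and the NRF1 word at bases 238 to 245, which 3.05% of windows held. EED held 1 CCAAT and no E2F word in this window. The windows also differed in CpG dinucleotides, with 46 in EZH2, 40 in SUZ12, 30 in EZH1 and 16 in EED, against a median of 14 over all windows. GGGCGG, the SP1 word, occurred 4 times in EZH2 (bases 84 to 89 and 88 to 93 overlap), 3 times in SUZ12, 1 time in EZH1 and 0 times in EED, and in 45% of all windows. The ETS word CCGGAAG (10.3% of windows) and the YY1 word AAGATGGC (2.89%) had no match in these 4 windows, and TTTGAA, the CHR word (15.2%), matched in SUZ12. These matches are letters in a window and do not show that a factor bound there.

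With the lowest fragment solutions, EZH2 carried the tallest listed stack of the 4 genes in 5 libraries, and in EV(RBN) it equalled EED. With the highest, EED (3491 fragments) and EZH1 (2155) exceeded EZH2 with the control siRNA, and a far-end summit of SUZ12 (1963) exceeded it in HA-RB(245-255). The measure is the number of DNA fragments stacked at a summit, recovered from the authors' fold enrichment and p-value. Its ratio to the background of the library, called enrichment here, allows for that background but not for other differences between libraries. The median enrichment over all gene ends ran from 13.6 in EV(RBN) to 64.0 in EV(245-255). A difference in enrichment between libraries therefore need not be particular to a gene. Intervals are exact 95% Poisson intervals and cover counting error only, and with 1 library per group no difference between groups can be tested. EZH2, on chromosome 7 from 148807383 to 148884291 on the minus strand, had 219 fragments (191 to 250.0) with RB1 siRNA and 315 (281 to 352) with the control siRNA. It had 44 (32.0 to 59.1) in HA-RB(245-255) and 47 (34.5 to 62.5) in EV(245-255). It had 96 (77.8 to 117) in HA-RBN and 6 (2.2 to 13.1) in EV(RBN). The recovery gave 1 solution for EZH2 in all 6 libraries. Its enrichment was 407 (354 to 464) with RB1 siRNA and 763 (681 to 852) with the control siRNA. It was 176 (128 to 236) in HA-RB(245-255) and 251 (184 to 333) in EV(245-255), and 151 (123 to 185) in HA-RBN and 16.4 (6.01 to 35.6) in EV(RBN). The interval of EV(RBN) lies below those of the other 5 libraries. The intervals do not overlap within the siRNA pair or within the RBN pair, and they overlap within the 245-255 pair. EZH2 was chosen on the siRNA and RBN pairs. How many of all gene ends had intervals that do not overlap was not counted, so nothing is read from this.

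**Figure D1:**
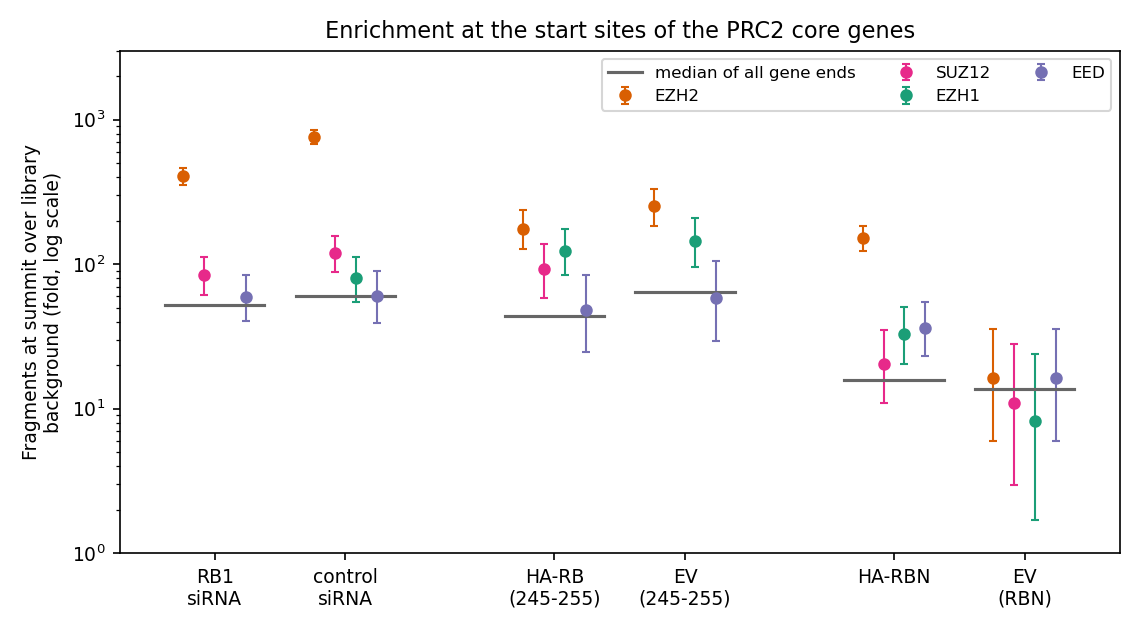
Enrichment (fragments at the summit over the background of the library, log axis) at the start sites of EZH2, SUZ12, EZH1 and EED in the 6 libraries, with the lowest fragment solutions. Points are single libraries, bars are exact 95% Poisson intervals, and grey lines are the median over all gene ends with a summit, which ran from 13.6 in EV(RBN) to 64.0 in EV(245-255). EZH2 is the highest point in every library but EV(RBN), where it equals EED at 16.4 and the 4 genes lie around the line.

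Among all genes with a summit within 1 kb of an end, EZH2 ranked near the top in 3 libraries with the lowest fragment solutions. By fragments it had rank 60 of 6721 genes with RB1 siRNA and rank 11 of 5629 with the control siRNA. It had rank 603 of 9113 in HA-RB(245-255), rank 570 of 9096 in EV(245-255), rank 127 of 14699 in HA-RBN and rank 4456 of 12053 in EV(RBN). In EV(RBN) 55.0% of gene ends had fewer fragments than EZH2, against 99.1% in HA-RBN. Several solutions existed for 14.39% of peaks with the control siRNA, 11.15% with RB1 siRNA and 0.473% in HA-RBN. Ranks with the highest solutions were not computed, so the ranks in the siRNA libraries hold for the lowest solutions only. The authors' own peak statistics, which use scaled fragments and a local background, ordered the libraries differently. Their fold enrichment at EZH2 was 4.81 with RB1 siRNA and 6.18 with the control siRNA, then 2.70 in HA-RB(245-255) and 3.01 in EV(245-255), and 14.8 in HA-RBN and 3.65 in EV(RBN). Their −log10 q-value was 4.45 with RB1 siRNA and 10.4 with the control siRNA, then 0 in HA-RB(245-255) and 2.49 in EV(245-255), and 77.6 in HA-RBN and 1.38 in EV(RBN). In HA-RB(245-255) the local background at this summit was 3.96 fragments against a floor of 0.250 in that library. In EV(245-255) it was 0.187, the floor itself, so the fold enrichments of this pair do not rest on the same background.

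SUZ12, the scaffold gene on chromosome 17 from 31937007 to 32001038 on the plus strand, had summits of moderate height. It had 45 fragments (32.8 to 60.2) with RB1 siRNA and 49 (36.3 to 64.8) with the control siRNA, 23 (14.6 to 34.5) in HA-RB(245-255), and 13 (6.92 to 22.2) in HA-RBN against 4 (1.09 to 10.2) in EV(RBN). EV(245-255) listed no summit at SUZ12. There the start site lay inside an interval from 31868245 to 32042023 whose only listed summit, of 27 fragments, was 35141 bp away, and each interval lists just its tallest point. A stack of up to 27 fragments at SUZ12 would not be listed, so the gap does not show that binding was missing. As enrichment SUZ12 reached 83.5 (60.9 to 112) with RB1 siRNA and 119 (87.8 to 157) with the control siRNA, then 92.0 in HA-RB(245-255), and 20.5 (10.9 to 35.1) in HA-RBN against 10.9 (2.97 to 27.9) in EV(RBN). The intervals overlap within the siRNA pair and within the RBN pair.

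EZH1, the gene of the other catalytic subunit, lies on chromosome 17 from 42700275 to 42745040 on the minus strand and had 33 fragments (22.7 to 46.3) with the control siRNA. That count is the lower of 2 solutions, the other being 2155. EZH1 had 31 (21.1 to 44.0) in HA-RB(245-255) against 27 (17.8 to 39.3) in EV(245-255), and 21 (13.0 to 32.1) in HA-RBN against 3 (0.619 to 8.77) in EV(RBN). As enrichment it stood at 124 (84.3 to 176) in HA-RB(245-255) and 144 (94.9 to 210) in EV(245-255), at 33.1 (20.5 to 50.6) in HA-RBN and 8.18 (1.69 to 23.9) in EV(RBN), and at 79.9 with the control siRNA. The enrichment intervals overlap in the 245-255 pair and, narrowly, in the RBN pair. In the 245-255 libraries the EZH1 and EZH2 intervals overlap too. RB1 siRNA listed no summit at EZH1, which lay inside an interval of 382503 bp with a summit of 133 fragments 66713 bp from the start site. A lower stack at EZH1 would again not be listed.

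EED, the gene of the subunit that reads the methyl mark, lies on chromosome 11 from 86244753 to 86287615 on the plus strand and stayed close to the median gene end in the siRNA and 245-255 libraries. It had 32 fragments (21.9 to 45.2) with RB1 siRNA and 25 (16.2 to 36.9) with the control siRNA, the last being the lowest of 4 solutions that reach 3491. It had 12 (6.2 to 21.0) in HA-RB(245-255) and 11 (5.49 to 19.7) in EV(245-255), and 23 (14.6 to 34.5) in HA-RBN against 6 (2.2 to 13.1) in EV(RBN). Its enrichment was 59.4 with RB1 siRNA and 60.5 with the control siRNA, where the median over all gene ends was 52.0 with RB1 siRNA and 60.5 with the control siRNA. In HA-RB(245-255) it was 48.0 and in EV(245-255) 58.7. In HA-RBN it was 36.3 (23 to 54.4) and in EV(RBN) 16.4 (6.01 to 35.6), with intervals that overlap.

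The 4 genes also differed in where the summit sat. At EZH2 the strongest summit lay upstream of the start site in all 6 libraries, from 243 to 132 bp before it, a range of 111 bp. The start site is position 0. In the promoter shown above these summits fall at base 38 with RB1 siRNA and 28 with the control siRNA, then 34 in HA-RB(245-255) and 119 in EV(245-255), and 13 in HA-RBN and 8 in EV(RBN). All 6 lie before the CCAAT words and the E2F word. Of 2035 genes with a start-site summit in all 6 libraries, 11.2% had a range of 111 bp or less, and the median range was 299 bp. The median summit position over these genes was −82.5 bp from the start site, and 19.4% had a median further upstream than EZH2. EZH2 has another RefSeq start site at position 148883485, and HA-RB(245-255) listed a further summit of 7 fragments between both start sites, at 148883592.

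SUZ12 summits fell at 2 places. They were 14 bp after the start site with RB1 siRNA, 13 bp with the control siRNA and 14 bp in HA-RB(245-255), but 252 bp before it in HA-RBN and 218 bp before it in EV(RBN). EZH1 summits lay 27 bp before the start site in HA-RB(245-255), in EV(245-255) and with the control siRNA, and after it by 138 bp in HA-RBN and 232 bp in EV(RBN). At EZH1 and SUZ12 the RBN pair therefore listed its summits apart from the libraries with an IgG partner, and at EZH2 it did not. In EV(RBN) these positions rest on 3 fragments at EZH1 and 4 at SUZ12. Over all shared gene ends, paired summits lay further apart in the RBN pair (median 80 bp) than in the siRNA (44 bp) and 245-255 (35 bp) pairs. Whether the difference is particular to these genes was not tested. EED was the most spread of the 4, from 157 bp before to 453 bp after the start site, a range of 610 bp. No other protein-coding gene had an end within 1 kb of any of these summits, the nearest ends being those of RAMP2 for EZH1 (16187 bp from the start site), UTP6 for SUZ12 (35299 bp), HIKESHI for EED (57487 bp) and CUL1 for EZH2 (83181 bp).

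**Figure D2:**
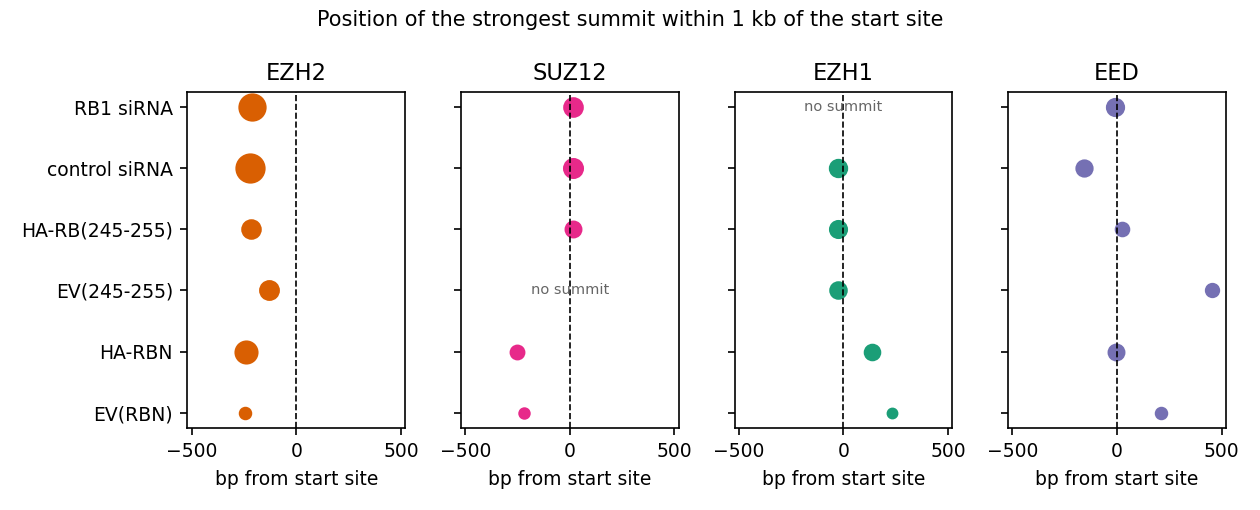
Distance in bp from the start site to the strongest summit within 1 kb of it, for each gene (panels) and library (rows), with upstream to the left and larger dots for more fragments. EZH2 summits line up between 243 and 132 bp upstream, while SUZ12 and EZH1 summits of the RBN pair sit away from those of the other libraries.

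Beyond the start sites the genes carried weak summits, most of them in HA-RBN. In all, the 4 genes had 4 summits with RB1 siRNA and 4 with the control siRNA, then 11 in HA-RB(245-255) and 9 in EV(245-255), and 35 in HA-RBN and 15 in EV(RBN). Those away from the start sites held 1 to 6 fragments each. EZH2 had 14 summits in HA-RBN against 5 in EV(RBN), which is 1.77 per 10 kb of gene with its flanks in HA-RBN and 0.634 in EV(RBN), where all genes had 0.982 in HA-RBN and 0.657 in EV(RBN). EZH1 had 8 in HA-RBN against 3 in EV(RBN), SUZ12 9 against 3 and EED 4 against 4. Per 10 kb, EZH1 had 1.71 in HA-RBN and 0.64 in EV(RBN), close to EZH2. SUZ12 had 1.36 in HA-RBN and 0.45 in EV(RBN), and EED 0.89 in both. The weak summits of HA-RBN include 1 of 6 fragments near the far end of EZH2, at position 148808304. In HA-RB(245-255) the summit of 5 fragments at 32001824, past the end of SUZ12, fell inside the 1 kb limit, and a summit of 4 fragments 1125 bp upstream of EZH2 fell outside it.

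Since all 4 genes were read from the same library, ratios between them need no scaling between libraries. EZH2 had 6.84 times the fragments of EED (95% interval 4.71 to 10.3) with RB1 siRNA and 12.6 times (8.38 to 19.8) with the control siRNA. The last value rests on the lowest solution for EED. Against SUZ12 the ratios were 4.87 (3.52 to 6.87) with RB1 siRNA and 6.43 (4.75 to 8.87) with the control siRNA. Both ratios were lower with RB1 siRNA and both intervals overlap those of the control siRNA. In the RBN pair EZH2 over EED was 4.17 (2.63 to 6.90) in HA-RBN and 1.0 (0.267 to 3.74) in EV(RBN), and EZH2 over EZH1 was 4.57 (2.83 to 7.72) in HA-RBN and 2.0 (0.427 to 12.4) in EV(RBN). EZH2 over SUZ12 was 7.38 (4.12 to 14.4) in HA-RBN and 1.5 (0.356 to 7.23) in EV(RBN). With 3 to 6 fragments a gene, EV(RBN) cannot separate the 4 genes from each other.

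The ratios of the 245-255 pair are set beside those of the siRNA libraries as a description, since EZH2 was chosen on the siRNA pair. RB1 siRNA had no summit at EZH1 and EV(245-255) none at SUZ12. EZH2 over EZH1 was 1.42 (0.876 to 2.32) in HA-RB(245-255) and 1.74 (1.06 to 2.91) in EV(245-255), against 9.55 (6.66 to 14.1) with the control siRNA. The control siRNA ratio rests on the lower solution for EZH1, and with the other, 2155 fragments, EZH2 would have fewer fragments than EZH1. EZH2 over EED was 3.67 (1.90 to 7.63) in HA-RB(245-255) and 4.27 (2.18 to 9.14) in EV(245-255), with intervals that overlap those of both siRNA libraries in EV(245-255) and that of RB1 siRNA in HA-RB(245-255). EZH2 over SUZ12 was 1.91 (1.13 to 3.32) in HA-RB(245-255), below the intervals of both siRNA libraries.

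**Figure D3:**
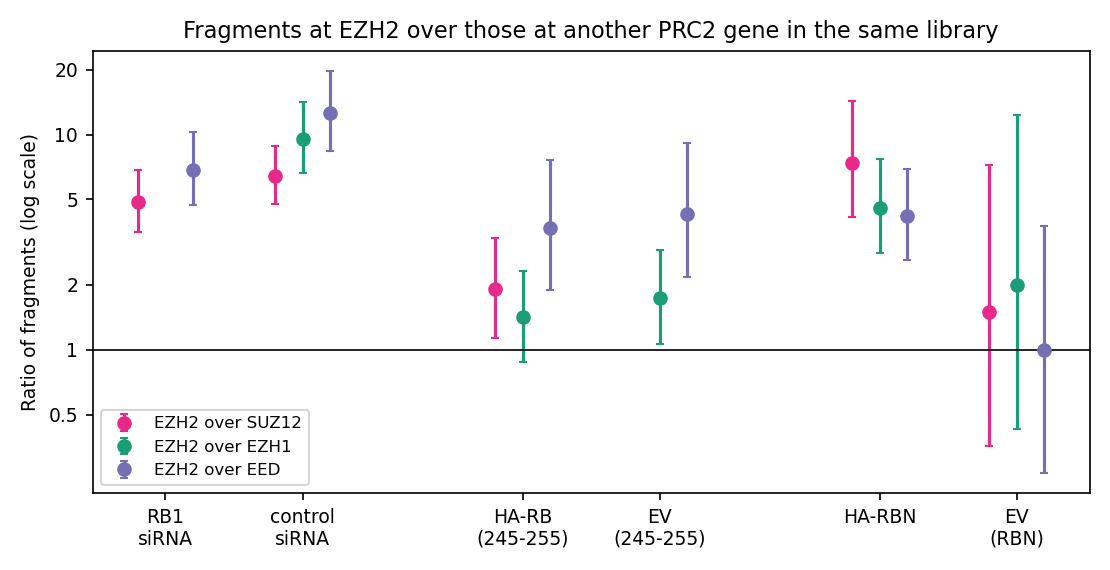
Fragments at the EZH2 summit divided by those at SUZ12, EZH1 or EED in the same library (log axis), with exact 95% intervals of the ratio of 2 counts. The siRNA libraries and HA-RBN lie between 4.17 and 12.6, the 245-255 pair between 1.42 and 4.27, and EV(RBN) between 1.0 and 2.0 with wide bars.

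Whether binding differs after RB1 knockdown is the question of the siRNA pair. Each comparison used summits paired within 250 bp that lay within 1 kb of the same gene end and held at least 20 fragments in both libraries together. The relative log2 ratio is the log2 ratio of the enrichments minus its median over all such shared gene ends of the pair, so 0 stands for an ordinary gene end. With RB1 siRNA over the control siRNA, 3 of the 4 genes had a shared gene end and 0 of these 3 lay more than 2-fold from the median, where 1.33% of 2784 shared gene ends did, 0.898% above and 0.431% below. EZH2 stood at −0.79 (−1.04 to −0.53). This is the difference EZH2 was chosen for. SUZ12 stood at −0.39 (−1.0 to 0.23) and EED at 0.09 (−0.71 to 0.91), both with intervals that include 0, and EED rests on the lowest solution of the control siRNA count (−6.81 with the highest). The middle 95% of all shared gene ends ran from −0.70 to 0.77, and EZH2 lay just below that range. Of the 2784 shared gene ends, 44 had a lower ratio than EZH2, and of the 988 with at least 100 fragments in both libraries together, 3 did, which describes the choice of EZH2.

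The 245-255 pair asks what the RB fragment with S249 and T252 does, and it was not used to choose EZH2. With HA-RB(245-255) over EV(245-255), EZH2 stood at −0.03 (−0.65 to 0.60), with 1507 of 3168 shared gene ends lower and 1658 higher. EZH1 stood at 0.27 (−0.53 to 1.07), with paired summits at the same base. Of these 2 genes 0 lay more than 2-fold from the median, where 3.44% of shared gene ends did, 1.45% above and 1.99% below. SUZ12 had no summit in EV(245-255), and the EED summits of this pair were too far apart to count as shared.

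The RBN pair asks the same of the RBN insert. With HA-RBN over EV(RBN), EZH2 stood at 2.53 (1.35 to 4.01), above all other 3307 shared gene ends of the pair, the next of which stood at 1.94. This is again a value EZH2 was chosen for. EZH1 stood at 1.33 (−0.41 to 3.72) on 21 fragments in HA-RBN and 3 in EV(RBN), and EED at 0.46 (−0.87 to 2.05) on 23 in HA-RBN and 6 in EV(RBN). Thus 2 of the 3 genes with a shared gene end lay more than 2-fold above the median, where 4.26% of 3308 shared gene ends lay above, 2.99% below and 7.26% in either direction, and because the contrast was used to choose EZH2 nothing is read from this count. SUZ12 held 17 fragments in both libraries together and was left out by the minimum of 20.

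**Figure D4:**
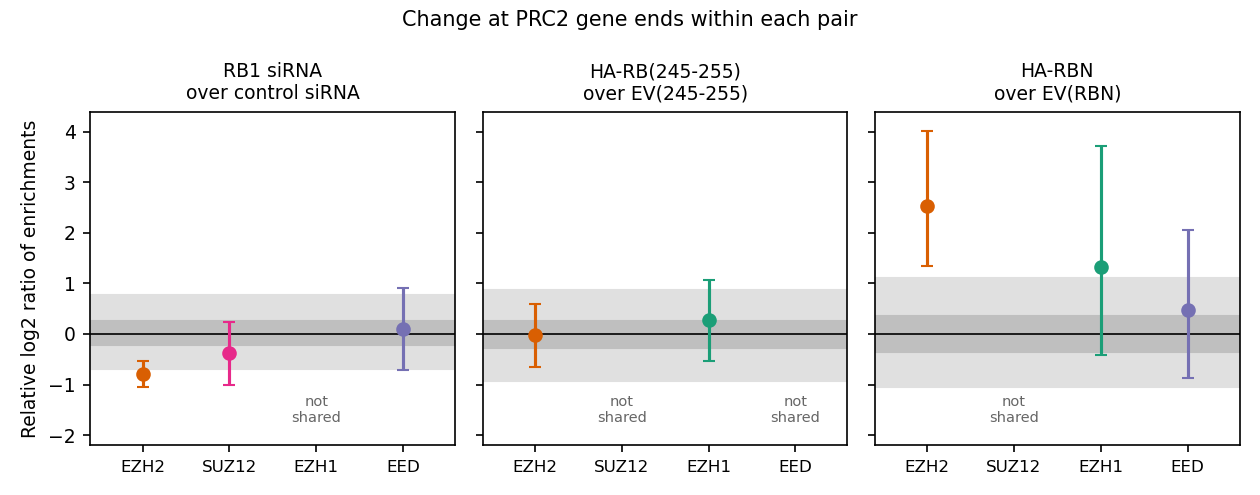
Relative log2 ratio of enrichments (the first-named library over its control, 0 being the median of all shared gene ends) for the 4 genes in each pair, with exact 95% intervals that cover counting error only. Dark and light grey bands hold the middle 50% and 95% of all shared gene ends. EZH2 lies below the light band in the siRNA pair, at −0.79, at the median in the 245-255 pair, at −0.03, and above the band in the RBN pair, at 2.53.

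EZH2 also differed between the control libraries. At 1145 gene ends with a summit in all 6 libraries, log2 enrichment was centred on the median of the library. EZH2 stood at 1.92 with RB1 siRNA and 2.71 with the control siRNA, at 0.70 in both HA-RB(245-255) and EV(245-255), and at 1.83 in HA-RBN against −0.74 in EV(RBN). The 3 controls of the same cell line thus ran from −0.74 to 2.71, a range of 3.45, where the median gene end had a range of 0.81 over the same 3 libraries. The ends of this range, the control siRNA and EV(RBN), belong to the 2 pairs EZH2 was chosen on, so its width is a description and nothing is read from it. Between the control siRNA and EV(245-255), both with an IgG partner, EZH2 differed by 2.02 against a median of 0.41. The control siRNA belongs to a pair EZH2 was chosen on, so this difference too is a description, as are the ranges that follow. Over all 6 libraries the range was 3.45, and without EV(RBN) it was 2.02. Each control belongs to its own pair, and the pair, the IgG partner and the library background cannot be told apart here.

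Likeness to EZH2 was measured by Pearson's r over the 6 libraries, and genes with LOC, LINC or histone symbols were left out of the naming. Of the others, the gene ends most like EZH2 were LMNB1 (r = 0.973), EMD (0.971), CDK13 (0.965), WEE1 (0.965) and the summit shared by ACTMAP and SNRPA (0.964). LMNB1 encodes lamin B1 and EMD emerin, both proteins of the nuclear envelope, CDK13 and WEE1 are kinases that act on transcription and on entry into mitosis, and SNRPA encodes a protein of the U1 splicing particle. Among the 1145 gene ends 2.53% had r above 0.9 with EZH2, and the median r was 0.04. The values share the library, its depth and its background, and the 6 points include pairs of like cells, so r describes these libraries alone. The 6 points also include the siRNA and RBN pairs, on which EZH2 was chosen. LMNB1 had 162 fragments with RB1 siRNA and 145 with the control siRNA, then 48 in HA-RB(245-255) and 46 in EV(245-255), and 60 in HA-RBN and 12 in EV(RBN). Its range was 1.33. The ranges of the 5 gene ends ran from 0.84 (EMD) to 1.62 (WEE1), far narrower than the 3.45 of EZH2. The median range over all 1145 gene ends was 1.03. A high r therefore does not mean differences of like size. Without EV(RBN) the r values of the 5 gene ends lay between 0.916 and 0.956.

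**Figure D5:**
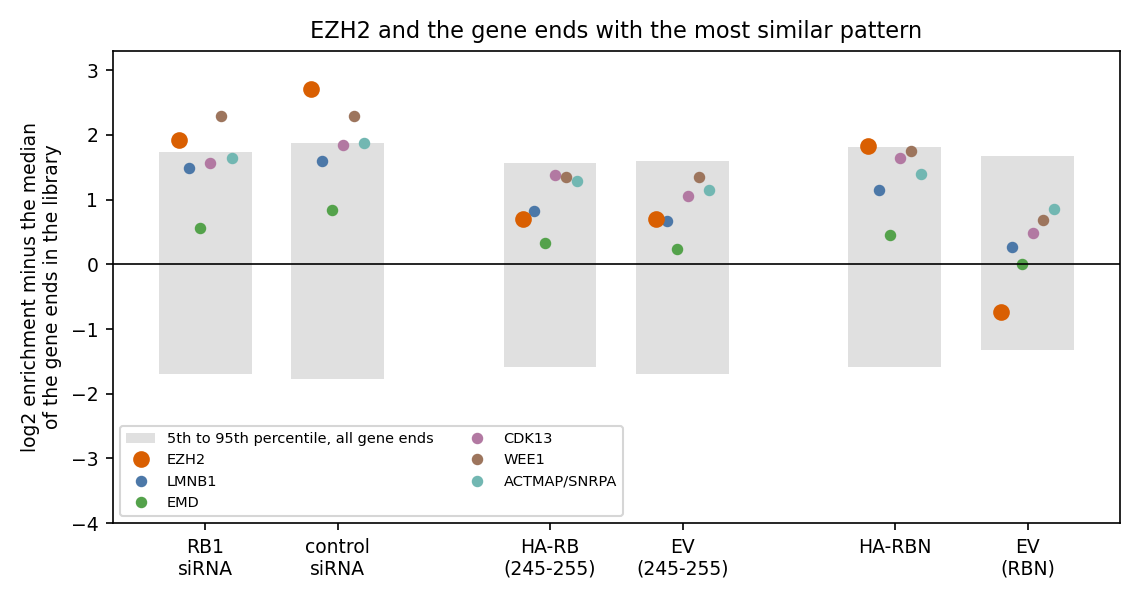
Log2 enrichment minus the median of the 1145 gene ends, in each library, for EZH2 and 5 other gene ends. These 5 have the highest r to EZH2 once LOC, LINC and histone symbols are left out. Grey bars run from the 5th to the 95th percentile of all 1145 gene ends. EZH2 lies above the bar at 1.92 with RB1 siRNA, at 2.71 with the control siRNA and, just, at 1.83 in HA-RBN, and well below the other 5 gene ends at −0.74 in EV(RBN).

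At the minimum of 20 fragments, no gene of the wider polycomb lists with a shared gene end lay more than 2-fold from the median of its pair. Of all shared gene ends 1.33% did in the siRNA pair, 3.44% in the 245-255 pair and 7.26% in the RBN pair. With so few list members nothing is read from this count. Of 11 PRC2 accessory genes, which recruit the complex or tune it, a gene end summit was listed for 5 with RB1 siRNA and 8 with the control siRNA, then 6 in HA-RB(245-255) and 7 in EV(245-255), and 11 in HA-RBN and 10 in EV(RBN). Of 21 genes of PRC1, the partner complex that ubiquitinates histone H2A and compacts chromatin, the numbers were 10 with RB1 siRNA and 6 with the control siRNA, then 10 in HA-RB(245-255) and 10 in EV(245-255), and 17 in HA-RBN and 12 in EV(RBN). Of all genes 33.5% had such a summit with RB1 siRNA and 28.1% with the control siRNA, then 45.5% in HA-RB(245-255) and 45.4% in EV(245-255), and 73.4% in HA-RBN and 60.2% in EV(RBN).

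With RB1 siRNA over the control siRNA, 5 PRC2 accessory genes had a shared gene end, of which 1 stood above and 4 below 0. Their median was −0.12 and 0 were past 2-fold, against 1.33% of all shared gene ends. RBBP4, a histone-binding subunit, stood at −0.12 (−0.51 to 0.28), JARID2, which helps to recruit PRC2, at −0.15 (−0.59 to 0.28) and LCORL, which encodes an accessory protein of the PALI type, at −0.06 (−0.46 to 0.35). PRC1 had 3 above and 2 below 0, a median of 0.01, CBX8, a reader of the H3K27 methyl mark, at −0.21 (−0.68 to 0.26) and the ubiquitin ligase RNF2 at 0.55 (−0.26 to 1.40). In the 245-255 pair the PRC2 accessory gene with a shared end was LCORL, at 0.24 (−0.31 to 0.78). PRC1 had 2 above and 4 below 0, a median of −0.10, PCGF3 at −0.01 (−0.70 to 0.68) and RYBP at −0.58 (−1.58 to 0.39).

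In the RBN pair JARID2 stood at 0.66 (−0.14 to 1.54) on 70 fragments in HA-RBN and 16 in EV(RBN), LCORL at 0.46 (−0.48 to 1.52) and RBBP4 at −0.28 (−0.99 to 0.48), and their median was 0.46. PRC1 had 3 above and 2 below 0, a median of 0.11, CBX8 at 0.53 (−0.70 to 1.97) and PCGF3 at 0.11 (−1.02 to 1.38). None of the list members with a shared gene end had an interval without 0 in any pair. How many of all shared gene ends had an interval without 0 was not counted, so nothing is read from this. KDM6A, which removes the H3K27 methyl mark, stood at 0.89 (−0.31 to 2.21) on 20 fragments with RB1 siRNA and 9 with the control siRNA, and neither KDM6A nor KDM6B had a shared gene end in the other pairs. With a minimum of 10 fragments the list had 1 in the RBN pair, at −1.11 (−3.09 to 0.94).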

How the data were processed

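Peak lists of 6 immunoprecipitated libraries were used, 1 per group. The submitters' processing notes name hg38, MACS2 (2.1.0), Bowtie (1.1.2), Trimmomatic (0.33) and bcl2fastq (2.17), with no role or setting. The lists were deposited per library, without headers, in narrowPeak layout without the name column. They give the authors' score, the fold enrichment at the summit as a ratio, the −log10 p-value, the −log10 q-value and the summit offset.

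The authors' fold was read as (pileup + 1)/(background + 1) and the p-value as a Poisson tail, the forms MACS2 uses, and both together were solved for the fragments at each summit. In lists with an IgG partner 1 scaled fragment was 0.0176, 0.0166, 0.0512 and 0.0434 (RB1 siRNA, control siRNA, HA-RB(245-255), EV(245-255)). The lowest solution was taken where several existed (0.473% to 14.4% of peaks). Fragment numbers of EZH1 and EED with the control siRNA and of the far-end summit of SUZ12 in HA-RB(245-255) had several solutions. At the lowest solution EZH1 and EED had a −log10 p-value of 2.17 and a local background of 0.413 fragments. SUZ12 with the control siRNA, which had 1 solution, had the same 2 values. The far-end summit of SUZ12 likewise shared 1.70 and 0.396 with EED in HA-RB(245-255), which had 1 solution. Which solution holds was not tested. On simulated peaks made with each library's settings, 98.2% (HA-RBN) to 100% of fragment numbers were recovered exactly. The simulated fragments and backgrounds were drawn from peaks with 1 solution. This share therefore does not show how well peaks with several solutions were recovered. Library backgrounds were 0.539, 0.413, 0.250, 0.187, 0.634 and 0.367 fragments per base (RB1 siRNA, control siRNA, HA-RB(245-255), EV(245-255), HA-RBN, EV(RBN)). Total reads per library are not known here. Median interval widths ran from 450 bp in EV(RBN) to 83581 bp with the control siRNA.

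Genes and promoters came from RefSeq tables of GRCh38.p14, in which the 4 genes and all 34 list symbols matched. Python 3.11.15, numpy 2.4.6, pandas 2.3.3, scipy 1.17.1 and matplotlib 3.10.9 were used. Ratio intervals are exact conditional binomial intervals. With 1 library per group there is no test and no p-value between conditions. The genes, lists and settings were chosen with earlier results of these data known. Beyond the 4 genes, the text names the 5 gene ends most like EZH2, with LOC, LINC and histone symbols left out. It also names list members whose interval excludes 0, or else up to 3 per list with the most fragments. The values of 1 list member that this rule names are not reported here. The alternatives tried were other pairing distances, fragment minimums, centrings, solutions, windows, a q-value minimum and lists of equal length.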

Additional observations from a re-analysis of the deposited data

How the results depend on the processing

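No paired analysis was possible because each group has 1 library, and for the same reason no replicate could be left out. Over 8 alternatives each, EZH2 ran from −0.91 to −0.56 in the siRNA pair, from −0.51 to 0.02 in the 245-255 pair and from 2.46 to 3.21 in the RBN pair. Of 60 alternative ratios of the 4 genes 59 stayed within the counting interval. The other was EED in the siRNA pair, at −6.81 with the highest fragment solution. That solution also gave EED 3491 and EZH1 2155 fragments with the control siRNA and a far-end summit of SUZ12 1963 in HA-RB(245-255). All 22 ranks stayed within 1.5 times, but the 2 kb window was their only alternative. Ranks with the highest fragment solution were not computed. Pairing within 500 bp added EED in the 245-255 pair at 0.19 (−1.12 to 1.51), and a minimum of 10 fragments added SUZ12 in the RBN pair at 0.32 (−1.37 to 2.40) and an H3K27 demethylase gene there at −1.11 (−3.09 to 0.94).

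The number of summits at the 4 genes depended on the list. With a −log10 q-value of at least 5 it was 0 with RB1 siRNA and 1 with the control siRNA, then 0 in HA-RB(245-255) and 0 in EV(245-255), and 4 in HA-RBN and 0 in EV(RBN). The share of all peaks past this minimum was not counted. Scaling also differs, since 5-fold at the floor background takes 80 to 244 fragments with an IgG partner, 8 in HA-RBN and 6 in EV(RBN). Nothing is read from these counts. With all lists at the length of the shortest, 20860 peaks, the number of summits at the 4 genes was 2 with RB1 siRNA, 4 in HA-RB(245-255) and 4 in EV(245-255), and 4 in HA-RBN and 3 in EV(RBN). In alternatives added after seeing the data, the range of EZH2 was 2.02 without EV(RBN) and 2.02 between the controls with an IgG partner.

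Shared gene ends more than 2-fold above and below the median changed in number as follows. In the siRNA pair they were 42 above and 22 below with pairing within 500 bp, 9 and 6 with at least 40 fragments, 16 and 28 without centring, and 409 and 754 with the highest solution. In the 245-255 pair they were 25 above and 38 below within 100 bp, 73 above within 500 bp, 102 and 111 with at least 10 fragments, 10 and 19 with at least 40, 15 and 395 without centring, and 363 and 596 with the highest solution. In the RBN pair they were 85 above and 58 below within 100 bp, 224 and 284 with at least 10 fragments, 38 and 24 with at least 40, 892 and 4 without centring, and 64 below when centred on all shared summits.

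Without centring the PRC1 median was −0.58 in the 245-255 pair and 0.79 in the RBN pair, and that of the PRC2 accessory genes was 1.15 in the RBN pair, where a minimum of 10 fragments gave 0.66. With the highest solution the PRC1 median was −0.46 in the siRNA pair and KDM6A stood at 8.77.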

Other observations

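The EZH1 summit was listed at the same base, 42745067 on chromosome 17, in HA-RB(245-255), in EV(245-255) and with the control siRNA, and the SUZ12 summit at 31937021 with RB1 siRNA and in HA-RB(245-255), and 1 base away with the control siRNA. How often summits coincide across pairs was not tested. Within a pair, paired summits at shared gene ends lay within 2 bp of each other in 19.9% of cases in the siRNA pair, 20.5% in the 245-255 pair and 5.93% in the RBN pair, and the median distance was 44 bp in the siRNA pair, 35 bp in the 245-255 pair and 80 bp in the RBN pair. The source of the difference between the pairs was not tested.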
